A study of Mus musculus with 12 samples.

Results

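Mast cell transcripts in paw joints were followed through 10 genes: the receptor Kit, the secretory granule proteases Cpa3, Mcpt4, Cma1 and Tpsb2, the IgE receptor chains Fcer1a and Ms4a2, the histamine-forming enzyme Hdc, and the G protein-coupled receptors Mrgprb1 and Mrgprb2. They were taken by mouse gene symbol, with earlier results of these data known. All 10 were among the 52636 gene identifiers of the deposited count table. Of the 10 genes, 6 had enough reads to be tested (Kit, Cpa3, Mcpt4, Cma1, Tpsb2 and Hdc) and 4 had not (Ms4a2, Fcer1a, Mrgprb1 and Mrgprb2). RNA came from paw joint tissue of 12 mice in 3 groups of 4, with 1 mouse per library. The KBxN + 6F2 mice received arthritogenic K/BxN serum and the agonistic anti-SIRPa antibody 6F2, the KBxN + aGP120 mice received the same serum and anti-gp120, a negative control antibody, and the Naive + aGP120 mice received anti-gp120 and no serum. They are called 6F2, control and naive mice here, and numbered as in the labels. Joints of the serum-treated mice were taken at day 7. The labels give no strain, age, sex or antibody dose, and all groups carry an antibody injection, so that no group shows untreated tissue.

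Mast cells are long-lived tissue cells that depend on Kit, the receptor for stem cell factor (Kitl), for survival. Their granules hold histamine, made by histidine decarboxylase (Hdc), together with heparin and proteases: the chymases Mcpt4 and Cma1, the tryptase Tpsb2 and the carboxypeptidase Cpa3 mark the connective tissue type found in skin and joint lining. IgE acts through the FcεRI receptor, whose alpha chain (Fcer1a) binds IgE and whose beta chain (Ms4a2) amplifies the signal, while Mrgprb2 answers cationic peptides and drugs without IgE. In arthritis caused by K/BxN serum, some strains of mice that lack mast cells were described as resistant and others were not. The role of these cells in the model has therefore been debated. SIRPa, the target of 6F2, is a receptor on myeloid cells that restrains their activation when it meets CD47.

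The transcription factor Gata2 is needed for mast cell formation, and sites with the core GATA are a known feature of mast cell gene promoters. The stretches before the RefSeq transcription start (assembly GRCm38.p6) are shown for the tested genes with an entry, to show where such letters stand; capitals mark GATA preceded by A or T and followed by A or G, on either strand, and each sequence runs 5′ to 3′ along its gene. Their places are chr3:20242182-20242431 (minus strand) for Cpa3, chr14:56062314-56062560 (minus) for Mcpt4, chr14:55944676-55944925 (minus) for Cma1, chr2:126618679-126618928 (minus) for Hdc and chr5:75574737-75574915 (plus) for Kit. The Kit and Mcpt4 stretches are shorter because bases annotated as exon are left out.
Cpa3: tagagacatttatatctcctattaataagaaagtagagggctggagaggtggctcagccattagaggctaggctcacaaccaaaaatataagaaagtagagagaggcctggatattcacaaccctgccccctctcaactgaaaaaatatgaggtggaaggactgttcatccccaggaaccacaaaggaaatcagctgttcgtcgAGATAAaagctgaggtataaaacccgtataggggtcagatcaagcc
Mcpt4: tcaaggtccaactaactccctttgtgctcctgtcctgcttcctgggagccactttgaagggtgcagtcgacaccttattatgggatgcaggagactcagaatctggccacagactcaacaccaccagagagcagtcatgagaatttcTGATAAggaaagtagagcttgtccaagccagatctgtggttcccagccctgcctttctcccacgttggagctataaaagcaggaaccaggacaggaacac
Cma1: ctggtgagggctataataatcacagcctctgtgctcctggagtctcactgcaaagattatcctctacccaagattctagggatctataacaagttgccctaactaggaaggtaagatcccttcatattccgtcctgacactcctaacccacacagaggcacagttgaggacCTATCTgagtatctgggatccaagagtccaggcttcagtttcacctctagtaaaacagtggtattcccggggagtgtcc
Hdc: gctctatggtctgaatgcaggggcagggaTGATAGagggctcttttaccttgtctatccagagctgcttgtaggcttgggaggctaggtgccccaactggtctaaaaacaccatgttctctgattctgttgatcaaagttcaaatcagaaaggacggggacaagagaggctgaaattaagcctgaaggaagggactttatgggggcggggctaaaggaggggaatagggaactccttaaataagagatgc
Kit: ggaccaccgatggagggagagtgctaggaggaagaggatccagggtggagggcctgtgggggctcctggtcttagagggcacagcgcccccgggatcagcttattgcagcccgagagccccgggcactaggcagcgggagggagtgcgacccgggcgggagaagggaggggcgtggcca

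An entry was found for 9 of the 10 genes (not Tpsb2). In the 250 bases before the start, 8 of these 9 held at least 1 such motif, Kit being the exception, against 26.5% of 32851 RefSeq promoter windows of the same length. The first letter of the match lay 46 bases before the start in Cpa3, 79 in Cma1, 103 in Mcpt4 and 221 in Hdc. TATAAA, the usual TATA box letters, occurred 31 bases before the start of Cpa3 and 32 before that of Mcpt4, the distance at which a TATA box works; 12.4% of all windows held these letters on some strand. A match is only a run of letters and was not tested for binding.

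Total counts were 13791454 to 17597920 in 6F2 libraries, 6893969 to 13416033 in control libraries and 14289363 to 16205593 in naive libraries. Across all 16674 tested genes, edgeR's quasi-likelihood test called 548 genes (3.29%) for 6F2 against control mice, 0 (0%) for 6F2 against naive mice and 1721 (10.3%) for control against naive mice at an adjusted p under 0.05. These numbers depended on single mice: without control 1, which had the lowest neutrophil gene sum of its group, the counts were 3976 for 6F2 against control and 4694 for control against naive mice, and leaving out 1 library at a time gave as few as 0 (without 6F2 1 or 2) and 412 (without control 3). Cartilage and joint lining genes (Prg4, Col2a1, Acan and Comp) were present in every library, at summed levels of 5917 to 10700 counts per 1 M counts (CPM, with library sizes scaled by TMM), as the tissue label says. The tissue also held much muscle (40250 to 123100 CPM over 10 genes) and a varying amount of epidermis (40.9 to 18070 CPM over 10 genes). In such bulk tissue, fewer cells of a type and less RNA per cell cannot be told apart.

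Mast cell transcripts were rare but present in all mice. Summed over the 10 genes they made up 23.5 to 46.4 CPM in 6F2 libraries, 10.1 to 21.6 in control libraries and 15.7 to 20.4 in naive libraries; the 6F2 range lay above the other 2. Kit, which other cells also make, gave 16.45 of the mean sum of 31.12 CPM in 6F2 mice. The 4 proteases alone summed to 8.61 to 16.9 CPM in 6F2 and 7.49 to 10.3 CPM in naive libraries, which overlapped. Set per kilobase of exon, the 2 chymases led in every group: mean Mcpt4 was 3.52, 1.63 and 2.53 CPM per kilobase in 6F2, control and naive mice, and mean Cma1 was 3.33, 1.57 and 2.52. Tpsb2 (1.89, 1.02 and 1.51 CPM per kilobase in 6F2, control and naive mice), Kit (1.85, 0.753 and 0.693) and Cpa3 (1.26, 0.346 and 0.819) lay below them, the remaining 5 genes at or under 0.476. The chymases did not differ from each other beyond their spread over mice, and neither did Kit and Tpsb2 in 6F2 mice. The proteases of mucosal mast cells, Mcpt1 and Mcpt2, had 0 counts in 6F2 and naive libraries and 5 and 3 counts in all in control libraries, so that nearly all mast cell protease reads were of the connective tissue type.

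Kit was higher in the joints of 6F2 mice than in either other group, and it alone of the 6 tested genes passed the test in any comparison. It had 14.5, 10.4, 27.0 and 14.0 CPM in 6F2 1 to 4, against 4.22, 8.67, 7.03 and 6.93 CPM in control 1 to 4 and 5.97, 5.76, 7.45 and 5.52 CPM in naive 1 to 4. Every 6F2 mouse was above every control and every naive mouse, with 6F2 3 far above its group, while control and naive mice overlapped. Means were 16.4 ± 7.27 CPM in 6F2, 6.71 ± 1.84 in control and 6.17 ± 0.872 in naive mice (SD, n = 4 each), from 1028, 306 and 358 reads in all. The gene spans chr5:75574916-75656722 on the plus strand (GRCm38), where no other annotated gene overlaps it.

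Against control mice Kit rose in 6F2 mice by 1.30 ± 0.28 on the log2 scale (SE; edgeR quasi-likelihood adjusted p = 0.0341). Against naive mice the log2 difference was similar, 1.41 ± 0.28, but did not pass (edgeR adjusted p = 0.526, 5th smallest of all genes in a comparison without calls), and control against naive mice differed by 0.11 ± 0.28 (edgeR adjusted p = 0.827; -0.026 without control 2). The call against control mice was narrow: edgeR adjusted p was 0.0519 without naive 1, 0.0705, 0.102 and 0.0807 without control 2, 3 and 4, and 0.0952, 0.0682 and 0.0718 without 6F2 1, 2 and 3, with log2 differences of 0.96 (without 6F2 3) to 1.47 over all 12 such fits. limma-voom gave an adjusted p of 0.0538.

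**Figure D1:**
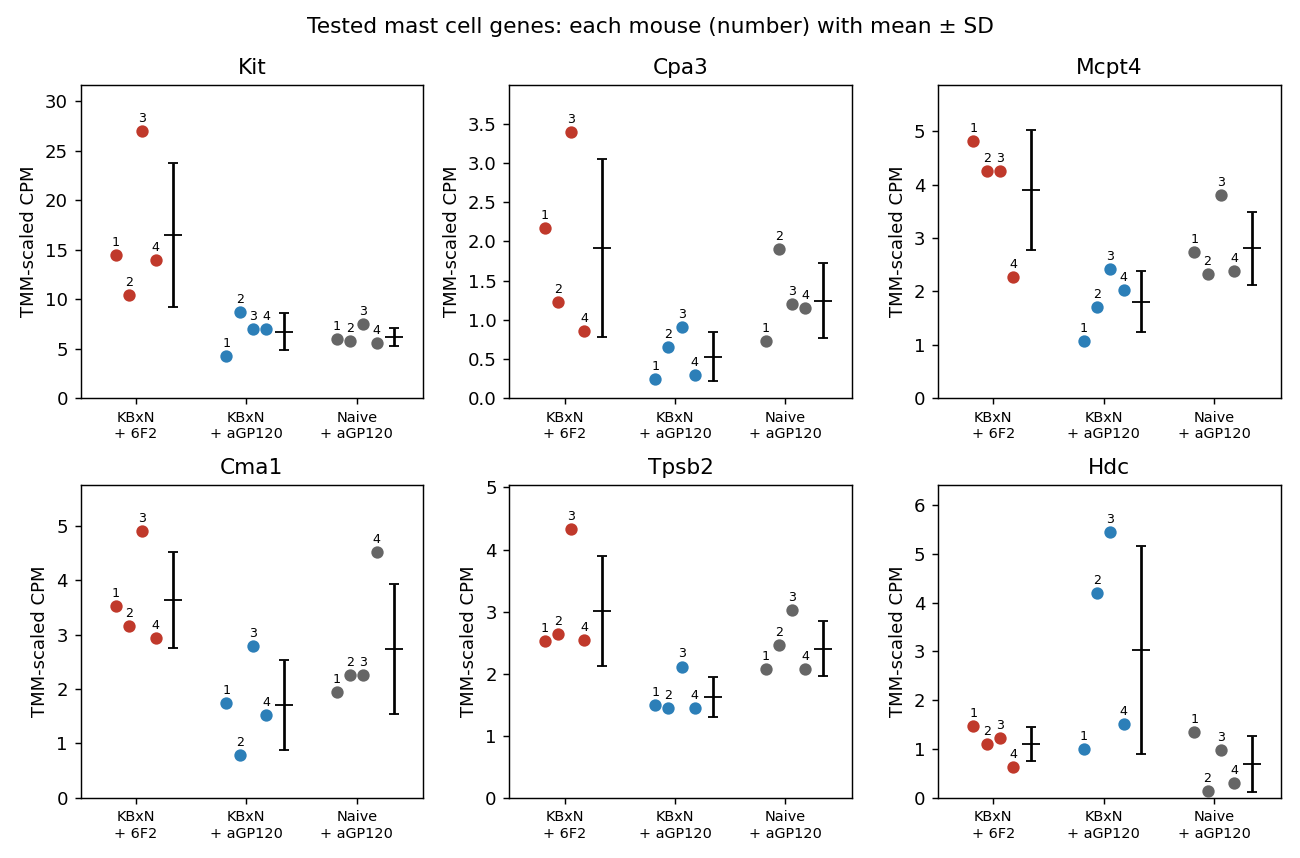
TMM-scaled CPM of the 6 tested genes (vertical axis, linear, from 0) in KBxN + 6F2, KBxN + aGP120 and Naive + aGP120 joints; each point is 1 mouse with its number, and bars give mean ± SD of 4 mice. Kit lies above 10 CPM in all 6F2 mice and below 9 in all others, the 4 proteases are lowest on average in KBxN + aGP120 mice, and Hdc is highest there.

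Kit is made by more cells than mast cells, among them blood progenitors of the marrow and pigment cells, so markers of these were read beside it. The granule genes of marrow myeloid precursors, Mpo, Elane, Prtn3 and Ctsg, summed to 7.82, 8.82, 26.3 and 2.49 CPM in 6F2 1 to 4, against 0.289 to 1.71 in control and 0.0703 to 1.83 in naive libraries. They were thus higher in every 6F2 mouse than in any other mouse, with 6F2 3 at the top as for Kit; this set was taken after its values were seen. Mpo, the myeloperoxidase of these precursors, differed between 6F2 and control mice by 3.73 ± 1.06 (log2, SE) without passing (edgeR adjusted p = 0.0703, and 0.0328 without control 1). Other genes on the progenitor list did not all share this order. Flt3 averaged 0.716 CPM in 6F2, 2.37 in control and 0.468 in naive mice. Cd34, which vessels also make, averaged 106, 75.3 and 102 CPM in the same order of groups, and Ms4a3 had 9, 6 and 0 counts. The 6 erythroid genes (globins, Alas2 and Slc4a1) summed to 26.7, 16.2, 43.2 and 15.8 CPM in 6F2 1 to 4, against 6.43 to 12.2 in control and 12.2 to 14.1 in naive libraries. Like the marrow granule sum, the erythroid sum separated 6F2 mice from both other groups. The globin Hbb-bs, whose reads can be shared with other globins, rose in 6F2 against control mice by 2.02 ± 0.40 (edgeR adjusted p = 0.0292, 0.0569 with limma-voom, and 0.0576 to 0.0952 without control 2, 3 or 4 or 6F2 1, 2 or 3).

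With these markers as covariates, chosen after the data were seen, the Kit difference between 6F2 and control mice was 0.81 ± 0.40 on the log2 scale with the marrow granule genes (edgeR adjusted p = 0.448) and 0.77 ± 0.49 with the erythroid genes (adjusted p = 0.997). Neither passed, but edgeR called 0 of all tested genes for 6F2 against control mice with either covariate. Both sums lay higher in every 6F2 mouse than in any other mouse, so these fits can hardly separate the markers from the group. With other covariates the Kit difference was larger than in the reported fit. It was 1.69 ± 0.36 with the muscle genes and 1.67 ± 0.26 with the neutrophil genes listed below. These fits did not pass either (edgeR adjusted p = 0.0922 and 0.0618), and over all genes 0 were called with each. How far marrow or blood cells account for the Kit reads was not tested. Of the defining pigment cell genes, Tyr was at 0 in 6F2 libraries, and Pmel, Mlana, Tyrp1 and Dct had 5, 5, 8 and 13 counts over all 4 of them. In the same order these 5 genes had 18, 5, 4, 5 and 24 counts over the control libraries. Over the naive libraries they had 0, 6, 10, 5 and 25. Sox10, a transcription factor of pigment cells and of the Schwann cells of nerves, was the 1 gene of the 6 on the pigment list with reads enough to test. It averaged 15.8 ± 1.33 CPM in 6F2, 9.77 ± 2.07 in control and 12.6 ± 2.07 in naive mice (SD, n = 4 each), and rose in 6F2 against control mice by 0.70 ± 0.18 (log2, SE; edgeR adjusted p = 0.0485). Of the fits without 1 library it passed in that without control 1 (adjusted p = 0.0054) and had an adjusted p of up to 0.137 in the other 11. The sum of the pigment list was at least 14.7 CPM in every 6F2 library, against 8.45 to 13.3 CPM in control and 11.4 to 16.4 CPM in naive libraries. The 6F2 mice thus lay above all control mice, but Sox10 gave 15.84 of the mean sum of 16.32 CPM in 6F2 mice. The part of pigment cells in the Kit difference was not tested.

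**Figure D2:**
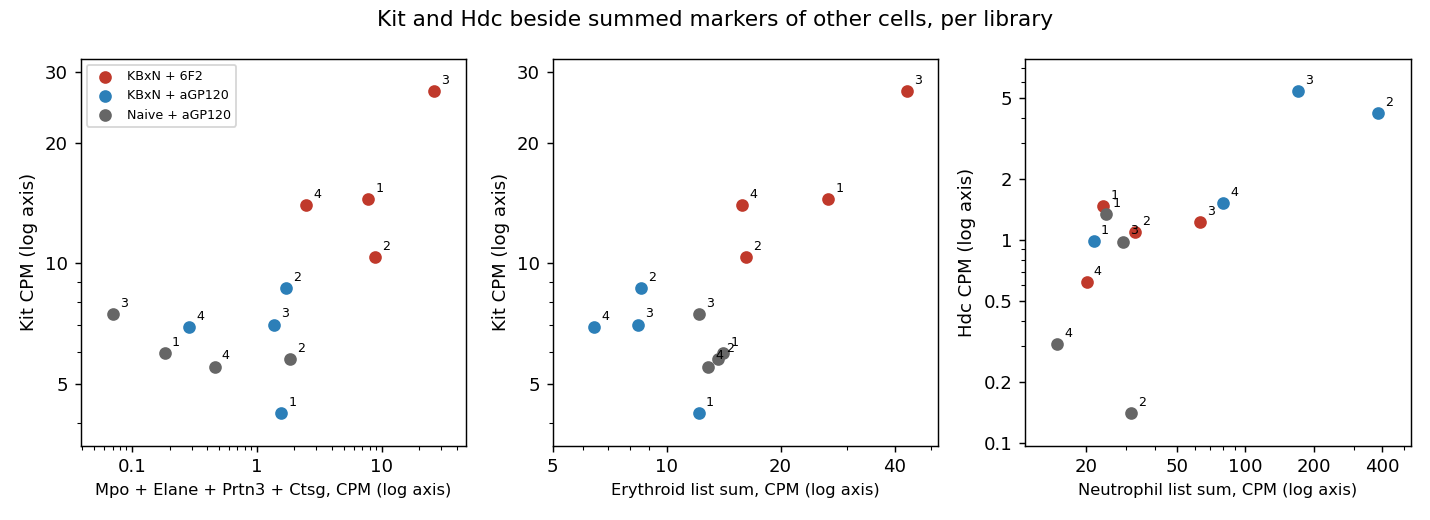
Kit CPM against the summed CPM of Mpo, Elane, Prtn3 and Ctsg (left) and of 6 erythroid genes (middle), and Hdc CPM against the sum of 7 neutrophil genes (right); all axes are logarithmic, and each point is 1 library with its mouse number, coloured by group. 6F2 mouse 3 is highest for Kit and for both sums beside it, and control mice 2 and 3 are highest for Hdc and for the neutrophil sum, most of which is Mmp9 in those mice.

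The mean of each granule protease was lowest in control mice, higher in naive mice and highest in 6F2 mice. For Kit the control and naive means were close (6.71 and 6.17 CPM). Whether Kit and the proteases differ in this order was not tested. As a sum, Cpa3, Mcpt4, Cma1 and Tpsb2 had 13.1, 11.3, 16.9 and 8.61 CPM in 6F2 1 to 4, against 4.55, 4.60, 8.23 and 5.27 CPM in control 1 to 4 and 7.49, 8.92, 10.3 and 10.1 CPM in naive 1 to 4. The lowest 6F2 mouse was just above the highest control mouse, and the naive range crossed both. None of the 4 genes passed the edgeR test in any comparison. On GRCm38 all are protein-coding: Mcpt4 lies at chr14:56059629-56062313 and Cma1 at chr14:55941451-55944675 on the minus strand, Cpa3 at chr3:20215620-20242181 on the minus strand and Tpsb2 at chr17:25366305-25369098 on the plus strand.

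Mcpt4, a chymase that cuts matrix proteins and cytokines, had 4.82, 4.25, 4.26 and 2.27 CPM in 6F2 1 to 4, against 1.07, 1.71, 2.42 and 2.02 CPM in control 1 to 4 and 2.74, 2.32, 3.80 and 2.38 CPM in naive 1 to 4. Only 6F2 4 reached into the control range, below control 3. The log2 difference of 6F2 against control mice was 1.10 ± 0.32 (SE; edgeR adjusted p = 0.0691, and 0.0443 without 6F2 4). Cma1, a chymotrypsin-family protease also called Mcpt5, had 3.53, 3.15, 4.91 and 2.94 CPM in 6F2 1 to 4, against 1.74, 0.788, 2.79 and 1.52 CPM in control 1 to 4 and 1.95, 2.25, 2.25 and 4.52 CPM in naive 1 to 4. All 6F2 mice were above all control mice, and naive 4 stood apart from its group. Its log2 difference of 6F2 against control mice was 1.06 ± 0.38 (edgeR adjusted p = 0.116). Both chymases lie in a cluster on chromosome 14, and 5.48% of the 50-base stretches of Mcpt4 and 5.38% of those of Cma1 also occur in other genes, so that a small part of their reads is uncertain.

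Tpsb2, the main tryptase stored in mouse mast cell granules and also called Mcpt6, had 2.53, 2.64, 4.33 and 2.55 CPM in 6F2 1 to 4, against 1.49, 1.44, 2.11 and 1.44 CPM in control 1 to 4 and 2.07, 2.46, 3.02 and 2.07 CPM in naive 1 to 4. Here too the 6F2 and control mice did not overlap, 6F2 1 lying just above control 3. The log2 difference was 0.88 ± 0.29 (edgeR adjusted p = 0.0917). Cpa3, a carboxypeptidase that degrades peptide toxins, had 2.17, 1.22, 3.39 and 0.849 CPM in 6F2 1 to 4, against 0.248, 0.657, 0.906 and 0.289 CPM in control 1 to 4 and 0.731, 1.90, 1.20 and 1.15 CPM in naive 1 to 4. It rested on few reads, 118, 24 and 71 over the 6F2, control and naive libraries, and only 6F2 4 fell into the control range. Its log2 difference of 6F2 against control mice, 1.86 ± 0.56, was the largest of the 6 genes and did not pass (edgeR adjusted p = 0.0721).

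Against naive mice none of the protease differences passed the edgeR test in either group of arthritic mice. For 6F2 against naive mice they ran from 0.32 ± 0.28 (Tpsb2) to 0.61 ± 0.51 (Cpa3) on the log2 scale, each with an edgeR adjusted p of 1. For control against naive mice all were negative, from -0.56 ± 0.29 (Tpsb2, edgeR adjusted p = 0.224) to -1.24 ± 0.56 (Cpa3, adjusted p = 0.166). DESeq2, run as an alternative, called Cpa3 and Mcpt4 for 6F2 against control mice (adjusted p = 0.0336 and 0.0298). Muscle made up less of 3 control libraries than of naive ones (40250, 47870 and 66930 CPM in control 2, 3 and 4, against 86780 to 123100 in naive libraries), and 6F2 libraries had 65240 to 98960. The part of this shift in tissue makeup in the protease levels was not tested.

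**Figure D3:**
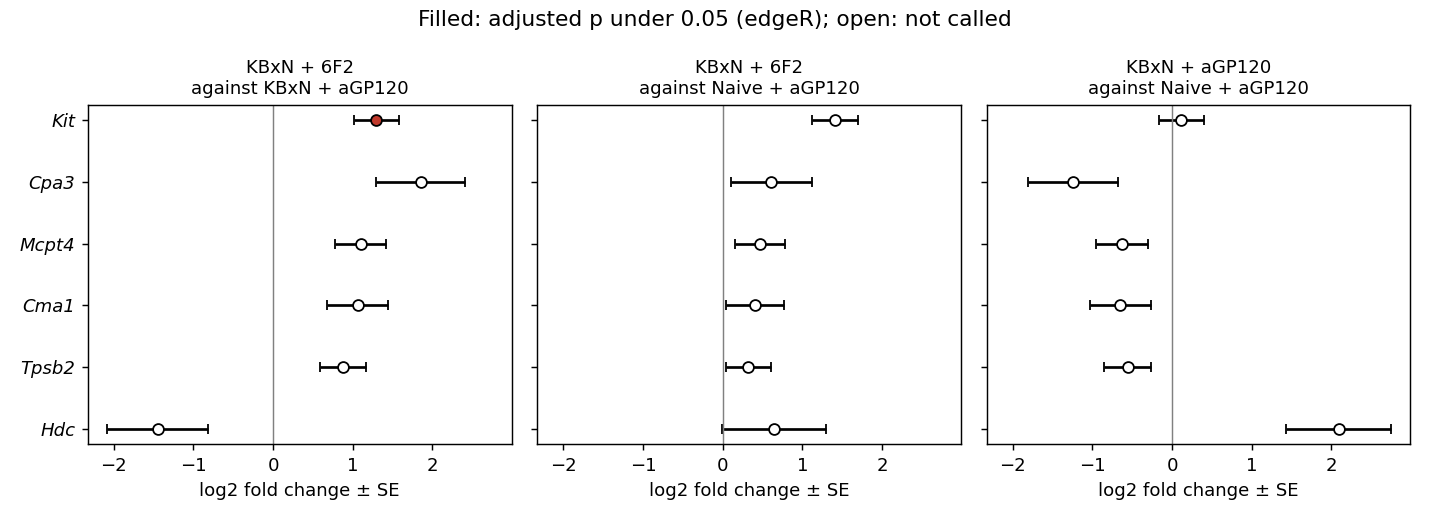
Log2 differences with their SE (horizontal axis) of the 6 tested genes in the 3 comparisons, from edgeR's quasi-likelihood model of 12 libraries; filled points mark an adjusted p under 0.05. Kit, for 6F2 against aGP120 in KBxN mice, is the only filled point, and 5 of 6 genes lie right of 0 in that comparison, with Hdc on the left.

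Over the 6 tested genes, 1 was called for 6F2 against control mice, where 1.59% of all tested genes were called higher and 3.29% in either direction, and the median log2 difference was 1.08 beside -0.03 for all tested genes. All 6 had an unadjusted p under 0.05 there, as did 24.4% of all genes. DESeq2 was run on all 37411 genes with a read, not on the 16674 tested by edgeR. It called 3 of the 6 genes, among 1777 genes in all, and limma-voom called 0 (2.07% of all tested genes). Without any overlap between the groups were Kit, Cma1 and Tpsb2, 3 of the 6 tested genes, beside 5.18% of all genes with 6F2 mice above control mice. For 6F2 against naive mice edgeR called 0 of the 6 genes (0% of all genes), and 1 had an unadjusted p under 0.05 (4.05% of all genes). DESeq2 called 1 (Kit, adjusted p = 0.00947), among 19 genes in all, and limma-voom 0 (0%). The median was 0.54 beside -0.01 for all genes. Kit alone did not overlap, beside 3.04% of all genes with 6F2 mice higher and 4.89% in either direction. For control against naive mice edgeR called 0 of the 6 genes (10.3% of all genes), 2 had an unadjusted p under 0.05 (28.2% of all genes), DESeq2 called 1 (Hdc; 17.1% of all genes) and limma-voom 0 (6.97%); the median was -0.59 beside 0.03, and 0 of the 6 genes had groups without overlap, beside 12.5% of all genes (6.02% with control mice higher and 6.47% with naive mice higher). The comparisons share mice, and the counts out of 6 leave out the 4 untested genes.

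Hdc had another order of groups than the proteases stored beside its product, with its highest levels in control mice. It had 1.47, 1.09, 1.23 and 0.623 CPM in 6F2 1 to 4, against 0.992, 4.20, 5.44 and 1.52 CPM in control 1 to 4 and 1.34, 0.141, 0.984 and 0.307 CPM in naive 1 to 4. Control 2 and 3, and narrowly control 4, were above all 6F2 and naive mice, control 1 lay within the 6F2 and naive ranges, and the means were 1.10 ± 0.356, 3.04 ± 2.13 and 0.693 ± 0.565 CPM in 6F2, control and naive mice (SD, n = 4 each). The log2 difference of control against naive mice was 2.09 ± 0.66 (SE; edgeR adjusted p = 0.0582), and that of 6F2 against control mice was -1.45 ± 0.63 (adjusted p = 0.182). Without control 1 the edgeR adjusted p against naive mice was 0.0111, and DESeq2 gave 0.0257 with all mice.

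Neutrophils and other myeloid cells can also make Hdc. A sum of 7 neutrophil genes (S100a8, S100a9, Cxcr2, Csf3r, Clec4d, Mmp8 and Mmp9) had 20.1 to 63.1 CPM in 6F2 libraries and 21.6, 386, 171 and 80.3 CPM in control 1 to 4, against 14.9 to 31.5 CPM in naive libraries. Control 2 and 3 were highest for this sum and for Hdc, and control 1, with the lowest Hdc of its group, was within the naive range of the sum. Mmp9, a matrix protease that other cells also make, gave most of this sum in control 2, 3 and 4. It had 11.3 to 20.8 CPM in 6F2 libraries and 13.3, 344, 140 and 60.6 CPM in control 1 to 4, against at most 27.6 CPM in naive libraries. The other 6 genes summed to 6.51 to 42.3 CPM in 6F2 libraries and 8.27, 42.2, 31.2 and 19.7 in control 1 to 4, against 1.34 to 6.88 in naive libraries. With or without Mmp9 the 6F2 and control groups overlapped, and without it 6F2 3 was level with control 2. The means of S100a8, S100a9 and Mmp8 were highest in 6F2 mice (4.93, 10.4 and 0.815 CPM, against 2.35, 5.73 and 0.475 in control mice). Those of the receptors Cxcr2, Csf3r and Clec4d were highest in control mice (0.429, 1.46 and 0.647 CPM in 6F2 mice, against 2.58, 8.28 and 5.92 in control mice). For control against naive mice 3 of the 6 tested neutrophil genes were called higher (5.87% of all genes were) and 0 lower. The part of neutrophils in the Hdc reads was not tested. Basophils also hold histamine. Over the 6F2, control and naive libraries their proteases Mcpt8 and Prss34 had 0, 3 and 0 and 1, 0 and 0 counts. Ccr3, which eosinophils also carry, had 6, 42 and 3 counts, and Cd200r3 had 22, 23 and 19. Il3ra, a receptor chain that other cells also make, was the 1 testable gene of the 5 on the list. It averaged 4.24 ± 0.639 CPM in 6F2, 7.27 ± 2.27 in control and 3.09 ± 0.794 in naive mice. It rose in control against naive mice by 1.23 ± 0.28 (edgeR adjusted p = 0.0184, and 0.0519 to 0.0592 without naive 1 or 2 or control 2, 3 or 4). The list summed to 3.93 to 5.27 CPM in 6F2, 4.47 to 13.7 in control and 2.56 to 4.29 in naive libraries. Its part in the Hdc reads was not tested.

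Kit and Hdc were also set against the protease sum of the same library. The ratio of Kit to protease CPM was 1.11, 0.92, 1.60 and 1.63 in 6F2 1 to 4, against 0.927, 1.89, 0.853 and 1.32 in control 1 to 4 and 0.797, 0.646, 0.726 and 0.546 in naive 1 to 4. Every arthritic mouse, under either antibody, was above every naive mouse, and 6F2 and control mice overlapped. The ratio of Hdc to protease CPM was 0.113, 0.0971, 0.0727 and 0.0724 in 6F2 1 to 4, against 0.218, 0.914, 0.661 and 0.288 in control 1 to 4 and 0.179, 0.0158, 0.0959 and 0.0303 in naive 1 to 4. Here all 4 control mice were above all other mice, control 1 included, while the 6F2 range lay within the naive range. These ratios were formed after the levels were known and are given without a test.

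**Figure D4:**
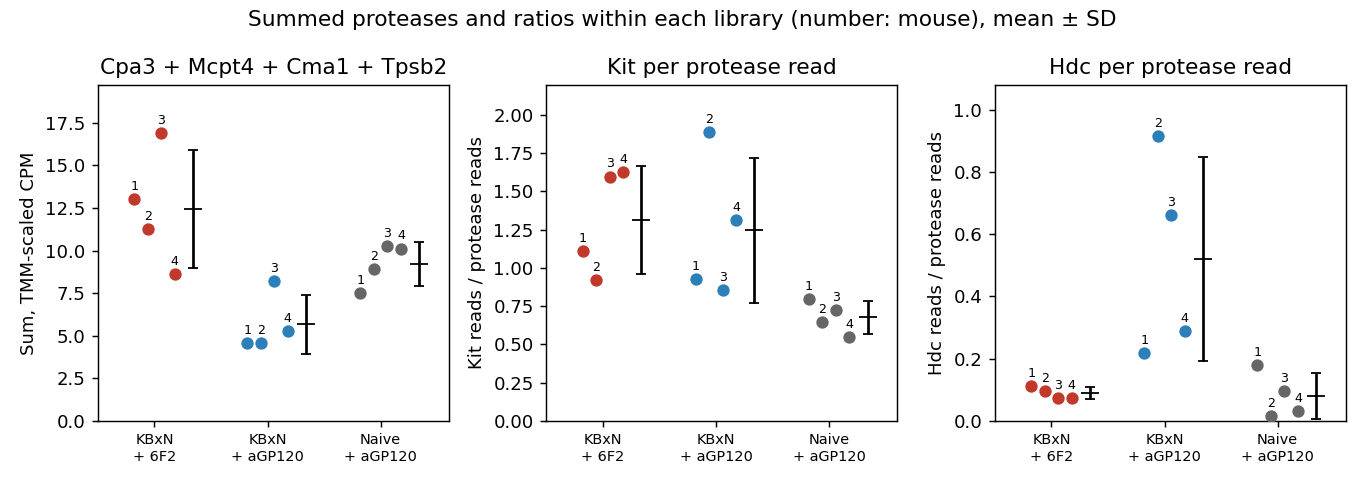
Summed protease CPM (Cpa3, Mcpt4, Cma1 and Tpsb2), ratio of Kit to that sum and ratio of Hdc to that sum in KBxN + 6F2, KBxN + aGP120 and Naive + aGP120 joints (vertical axes linear, from 0); each point is 1 mouse with its number, bars give mean ± SD. The Kit ratio is lowest in all naive mice, and the Hdc ratio is highest in all KBxN + aGP120 mice.

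The IgE receptor chains and the Mrgprb receptors were at the edge of detection. Ms4a2 had 6, 5, 2 and 7 reads in 6F2 1 to 4, against 1, 3, 6 and 4 in control 1 to 4 and 4, 5, 8 and 8 in naive 1 to 4. Fcer1a had 2, 3, 1 and 3 reads in 6F2 libraries, against 0, 0, 3 and 2 in control and 1, 2, 1 and 3 in naive libraries, so no library held more than the 3 reads taken here as the floor, which is 0.17 to 0.394 CPM depending on depth. Differences between groups were not detectable at this depth for either chain.

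Mrgprb1 had 4, 4, 10 and 14 reads in 6F2 1 to 4, against 1, 2, 3 and 0 in control 1 to 4 and 10, 0, 9 and 9 in naive 1 to 4. The sums were 32 reads in 6F2 mice (95% exact Poisson interval 21.9 to 45.2), 6 in control mice (2.2 to 13.1) and 28 in naive mice (18.6 to 40.5). Each 6F2 mouse had more reads than any control mouse, but 6F2 libraries were also deeper. In CPM the groups overlapped, with control 2 above 6F2 1 and 6F2 2. These intervals cover counting error only. In an edgeR fit without a filter on low counts, over 37411 genes, its log2 difference of 6F2 against control mice was 1.89 ± 1.02 (adjusted p = 0.25) and that of control against naive mice -1.83 ± 1.03 (adjusted p = 0.252). Mrgprb2 had 1, 0, 4 and 6 reads in 6F2 1 to 4, against 2, 0, 0 and 10 in control 1 to 4 and 4, 6, 6 and 2 in naive 1 to 4. Its reads were too few and too scattered to order the groups, 10 of the 12 control reads coming from control 4. Both genes lie on chromosome 7 on the minus strand, Mrgprb2 from 48550965 to 48558086 and Mrgprb1 from 48444113 to 48456342 (GRCm38).

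**Figure D5:**
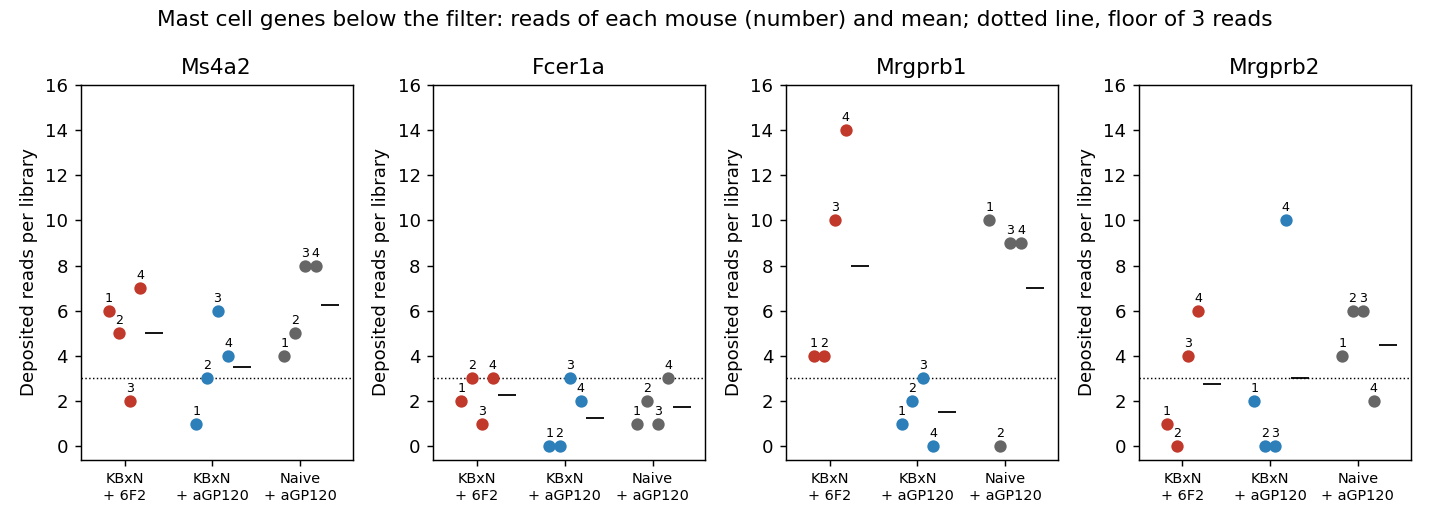
Deposited reads per library (vertical axis, linear, from 0) of the 4 genes with too few reads to be tested, in KBxN + 6F2, KBxN + aGP120 and Naive + aGP120 joints; each point is 1 mouse with its number, dashes are means, and the dotted line is the floor of 3 reads. Mrgprb1 is at 4 to 14 reads in all 6F2 mice and at or under 3 in all KBxN + aGP120 mice. The reads are not scaled for depth, and in CPM Mrgprb1 overlaps between these groups, as the other 3 genes do between all groups.

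Other genes used by mast cells were read in the same way. Of 15 further mast cell genes 8 could be tested. For 6F2 against control mice 1 was called higher (1.59% of all genes were), and for control against naive mice 1 was called lower (4.45%). Both times it was Smpx. Smpx, which the list of mast cell genes holds although it is known chiefly as a sarcomere protein of muscle, rose in 6F2 against control mice by 1.12 ± 0.25 (log2, SE; edgeR adjusted p = 0.0378, up to 0.121 in the fits without 1 library, and under 0.05 only in those without naive 4, control 1 or 6F2 4) and fell in control against naive mice by 1.36 on that scale (SE 0.26; adjusted p = 0.0107); muscle genes were lower in 3 of the control libraries, as given above. With the muscle genes as a covariate neither Smpx difference passed, at 0.58 for 6F2 against control and -0.70 for control against naive mice (edgeR adjusted p = 0.163 and 0.0847). Over all genes, that covariate left 0 and 47 calls in these comparisons. Gata2, the mast cell transcription factor, averaged 5.57 ± 0.801 CPM in 6F2, 4.64 ± 1.02 in control and 5.84 ± 1.23 in naive mice, and the median of the 8 genes was 0.15 for 6F2 against control mice beside -0.03 for all genes. Slc18a2, which loads histamine into granules, had 29, 7 and 28 reads over the 6F2, control and naive libraries, too few to test, an order like that of Mrgprb1. Il1rl1, the IL-33 receptor, had 4.42 to 9.34 CPM in 6F2, 2.81 to 20.1 in control and 2.50 to 4.99 in naive mice and was not called.

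The growth factors of mast cells showed no call. Of 10 genes 6 could be tested. Of all tested genes, edgeR called 3.29% for 6F2 against control mice and 10.3% for control against naive mice. Kitl, the ligand of Kit, averaged 28.1 ± 1.87 CPM in 6F2, 21.8 ± 3.29 in control and 22.9 ± 4.04 in naive mice (SD, n = 4 each), with a log2 difference of 6F2 against control mice of 0.36 ± 0.15 (edgeR adjusted p = 0.149). Il33, an alarmin of stromal cells, averaged 5.19 ± 1.70 CPM in 6F2, 7.48 ± 3.54 in control and 4.26 ± 1.38 in naive mice. Il3 and Il9 were at 0 in all 12 libraries, and Il4 had 5 counts, all in control libraries.

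A list of genes around FcεRI signalling included calls in control against naive mice. Besides genes downstream of the receptor it holds the receptor's gamma chain Fcer1g and separate receptors such as Fcgr2b, Cd300a and Pilra. Fcer1g and Fcgr2b were among the genes called higher. Of the 24 listed genes 22 could be tested. For control against naive mice 9 were called higher (5.87% of all genes) and 2 lower (4.45%), with a median log2 difference of 0.95. For 6F2 against control mice edgeR called 0 (3.29% of all genes, median -0.62), with Syk and Inpp5d nearest (adjusted p = 0.0783 and 0.0868). For 6F2 against naive mice it called 0 (0% of all genes, median 0.45). The called genes act in many leukocytes. Vav1, an exchange factor downstream of Syk, averaged 11.2 ± 1.26 CPM in 6F2, 19.8 ± 8.59 in control and 7.64 ± 0.749 in naive mice. It rose in control against naive mice by 1.38 ± 0.28 (log2, SE; edgeR adjusted p = 0.0137). The Src-family kinase Fgr rose by 2.59 ± 0.54 (adjusted p = 0.0153, and 0.0503 without control 3), and the calcium channel gene Orai1 fell by 0.67 (SE 0.15; adjusted p = 0.0185, and 0.0519 to 0.0571 without naive 4, control 2, 3 or 4). Fcer1g, the gamma chain that FcεRI shares with IgG receptors of macrophages and neutrophils, is named here after its values were seen: it had 7.00 to 14.9 CPM in 6F2, 7.44 to 26.8 in control and 5.83 to 8.51 in naive mice, and rose in control against naive mice by 1.43 ± 0.34 (edgeR adjusted p = 0.0224, and 0.0553 to 0.0736 without naive 1, 2 or 4 or control 2, 3 or 4). The neutrophil sum given above was highest in control 2, 3 and 4, where most of it was Mmp9. Without Mmp9 it was 42.3 CPM in 6F2 3, against 42.2, 31.2 and 19.7 in control 2, 3 and 4. Muscle genes were lower in these control libraries than in naive mice. With the muscle genes as a covariate Vav1, Fgr, Orai1 and Fcer1g no longer passed (0.78, 1.51, -0.47 and 0.51; edgeR adjusted p = 0.433, 0.447, 0.336 and 0.648). None passed with the neutrophil genes in its place (0.59, 1.55, -0.49 and 0.80; edgeR adjusted p = 0.996 each). Over all genes, 47 were called with the muscle genes as a covariate and 0 with the neutrophil genes. These losses are thus not particular to the 4 genes. The 4 calls were also lost with the erythroid genes as a covariate (adjusted p = 0.0792 to 0.144), and Fgr and Fcer1g with limma-voom (0.0527 and 0.0683).

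The 12 genes for mast cell lipid mediators, histamine breakdown and the granule matrix could all be tested. For 6F2 against control mice 1 was called higher (1.59% of all genes were). For control against naive mice 1 was called higher (5.87%) and 1 lower (4.45%). Alox5, the 5-lipoxygenase of leukotriene synthesis, averaged 28.9 ± 11.5 CPM in 6F2, 12.9 ± 1.51 in control and 19.9 ± 0.838 in naive mice, and rose in 6F2 against control mice by 1.16 ± 0.24 (log2, SE; edgeR adjusted p = 0.0314, and 0.0505 to 0.0987 without naive 1, control 2, 3 or 4, or 6F2 1 or 2). Its order of groups was that of the proteases. With the muscle, erythroid, marrow granule or neutrophil genes as a covariate its difference was 1.22, 1.59, 1.65 or 0.93 and did not pass (edgeR adjusted p = 0.187, 0.4, 0.14 and 0.255). Over all genes, 0 were called for 6F2 against control mice with any of these covariates. With limma-voom the adjusted p of Alox5 was 0.0669. Ptgs2, the inducible cyclooxygenase, which many inflamed cells make, rose in control against naive mice by 3.06 ± 0.67 (edgeR adjusted p = 0.0178, and 0.0541 to 0.0644 without naive 2 or 4 or control 3), and Chst15, a sulfotransferase of chondroitin sulfate, fell by 0.43 (SE 0.12; adjusted p = 0.0446, up to 0.122 in the fits without 1 library, and under 0.05 only in those without control 1, control 2 or 6F2 4). Neither passed with the muscle genes as a covariate (0.80 for Ptgs2 and -0.62 for Chst15; edgeR adjusted p = 0.708 and 0.0968) or with the neutrophil genes (1.89 and -0.52; adjusted p = 0.996 each). Over all genes, these covariates left 47 and 0 calls for control against naive mice. With limma-voom the adjusted p of Ptgs2 was 0.131. For 6F2 against naive mice edgeR called 0 of these genes.

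The 6 tested genes were alike only in part over the 12 libraries. Between pairs among Kit and the 4 proteases, Pearson's r of log2 CPM ran from 0.46 (Kit and Cma1) to 0.87 (Cpa3 and Tpsb2), and between Hdc and these 5 from -0.38 to 0.15. These values describe libraries that share their groups and tissue makeup. Of 14984 other genes that averaged 1 CPM or more, those most like the mean of the 6 genes were Flt4 (r = 0.91 over 12 libraries, and 0.81 without 6F2 3 and control 1), Lsm1 (0.86), Rbp4 (0.85), Itpr1 (0.83), Ebf1 (0.83), Tcf7l2 (0.82), Ppp1r21 (0.82) and Zeb2 (0.82). Flt4, a receptor of lymphatic endothelium, averaged 10.7 CPM in 6F2, 7.43 in control and 7.92 in naive mice. With each group's mean taken away, the most alike were Tnks, Klhl26, Il18rap and Zfc3h1 (r = 0.92 each), Gm20768 (0.91) and Nlrp1c-ps and Dph5 (0.90). The 2 sets of genes had no member in common.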

How the data were processed

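Total RNA of 12 paw joints was extracted with a column kit and made into stranded total RNA libraries, per the labels' protocols. The authors deposited raw counts, whole reads for each gene, and the submitters' processing notes name GRCm38 as the build. How reads were aligned and counted, on which strand, and what was done with reads of more than 1 gene is not given in the sources used here. Sample tables and series table hold identical counts. Each library is 1 mouse per the labels, and no 2 libraries of a group agreed within sampling noise (lowest chi-square per gene 8.26).

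Identifiers were named from GENCODE M21 (52403 of 52636 found; the others hold 0.024% of counts). Tests were run in edgeR 4.0.16 (R 4.3.3): after filterByExpr by group (minimum count 10) 16674 genes remained, TMM set the library scale, and 1 robust quasi-likelihood model with a coefficient per group was fitted to all 12 libraries. Benjamini-Hochberg adjustment ran over all of these genes, and 0.05 was the threshold. CPM was computed here from the deposited counts with the TMM scale. The test was tried on simulated counts. Poisson intervals and the floor of 3 reads leave out all error but that of counting, and PCR copies were not removed by molecular identifiers.

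DESeq2 1.42.0, limma-voom (limma 3.58.1), other filters and scalings, marker covariates and fits without single libraries were alternatives. The members, gene lists and tests were chosen with earlier results of these data known. From each list, genes past the threshold were named, up to 4 with the smallest p, and otherwise up to 2, with Kitl and Il33 always; the 8 most alike genes were taken by Pearson's r. Genes named for a role in the text beside these were chosen after their values were seen. Some genes that this rule took are not reported here.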

Additional observations from a re-analysis of the deposited data

Results flagged for a closer look

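Of 39 groups of 4 mice in which a library far from the others was looked for (the 10 genes, the protease sum and the ratios), 4 held one; chance gives about 1 in 20 groups. Naive 4 was highest for Cma1, with a gap to the next mouse of 0.883 of its group's range. For Tpsb2, 6F2 3 was highest with a gap of 0.937 of the 6F2 range, and control 3 was highest with a gap of 0.934 of the control range. Naive 2, without a read, was lowest for Mrgprb1 with a gap of 0.8825 of the naive range.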

How the results depend on the processing

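For 6F2 against control mice, where Kit was the 1 gene of the 10 called, 0 were called with limma-voom, with only the 2 groups compared, with the muscle, erythroid, marrow granule or neutrophil genes as a covariate (the last 3 chosen after seeing the data), or without naive 4 and 6F2 2 or control 2 and 4, and 3 with DESeq2. Over all genes, against 548, the counts were 1777 with DESeq2, 345 with limma-voom and 0 in the fit of 2 groups, with the muscle, erythroid, marrow granule or neutrophil covariate and without either pair of libraries; with the epidermis covariate they were 670, Kit among them. For control against naive mice, 1 of the 10 (Hdc) was called with DESeq2 and without a filter on low counts, and over all genes, against 1721, the counts were 2849 with DESeq2, 435 with the 2 groups, 47, 2114, 248, 1130 and 0 with the muscle, epidermis, erythroid, marrow granule and neutrophil covariates, 166 without naive 4 and 6F2 2 and 1 without control 2 and 4. For 6F2 against naive mice, 1 of the 10 (Kit) was called without a filter and with DESeq2, among 4 and 19 genes in all.

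Leaving out 1 library at a time gave 0 to 2 of the 10 genes called for 6F2 against control mice and 0 to 1 for control against naive mice, among 0 to 3976 and 412 to 4694 genes. Kit in control against naive mice, 0.11 in the reported fit, was -0.33 with the muscle covariate, -0.83 with the neutrophil covariate, -0.16 without control 2 and 4 and -0.026 without control 2 (-0.026 to 0.272 over the fits without 1 library). In 6F2 against naive mice, where Cpa3, Cma1 and Tpsb2 were 0.61, 0.41 and 0.32, Cpa3 was -0.35, -1.15 and -0.52 with the erythroid, marrow granule and neutrophil covariates, Cma1 was -0.082 with the erythroid and Tpsb2 -0.11 with the marrow granule covariate. The cause was not tested. The alternative fits gave 504 log2 differences of the 6 genes in all, those above included. Of these, 471 kept their direction and side of the threshold, 9 changed direction, 16 lost a call and 8 gained one.

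With the replicate number as a block, 735, 78 and 0 genes were called for control against naive, 6F2 against control and 6F2 against naive mice, and 0 of the 10 in each; Kit had an edgeR adjusted p of 0.065 for 6F2 against control mice. The numbers do not pair the mice: 1 of 12 same-numbered pairs deviated together at a correlation over 0.1 (range -0.8 to 0.207), and 0 libraries correlated best with their own number. Low counts of the 4 untested genes limit what could be seen of them.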

Other observations

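Eosinophil genes, of which 0 of 6 could be tested, summed to 0.227 to 0.411 CPM in 6F2 libraries, 0 to 4.73 CPM in control libraries and 0.0609 to 0.351 CPM in naive libraries. Ccr3, a chemokine receptor of eosinophils, basophils and some mast cells, had 6 counts over the 6F2, 42 over the control and 3 over the naive libraries. Flt3, a receptor of early progenitors and dendritic cells, averaged 0.716 ± 0.636 CPM in 6F2, 2.37 ± 2.23 in control and 0.468 ± 0.316 in naive mice (SD, n = 4 each), and so was not highest where Mpo was. Cd34, a marker of progenitors that vessels also make, averaged 106 ± 15.8 CPM in 6F2, 75.3 ± 3.42 in control and 102 ± 6.86 in naive mice. It rose in 6F2 against control mice by 0.49 ± 0.12 (log2, SE; edgeR adjusted p = 0.0403). In control against naive mice it fell by 0.44 (SE 0.12; edgeR adjusted p = 0.0321), and 6F2 against naive mice differed by 0.05 ± 0.12. How these calls hold without single libraries is not given here.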
